A study of Homo sapiens with 6 samples.

Results

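Histone H3 acetylated at lysine 27 (H3K27ac), which marks active regulatory DNA, was mapped around the promoters of the genes that encode the proteasome in 2 acute myeloid leukemia (AML) cell lines. The genes were all protein-coding genes of GENCODE 44 on chromosomes 1 to 22 and X whose symbol begins with PSM, a letter from A to G and a digit. This rule took 50 of 19970 genes. Their products are the 7 alpha and 7 constitutive beta subunits of the 20S core, the 3 immunoproteasome beta subunits, 2 tissue-restricted core subunits, 6 ATPase subunits of the 19S cap, the products of the 14 PSMD genes (non-ATPase subunits, apart from PSMD5, PSMD9 and PSMD10, which are assembly chaperones of the base), 4 activators, 1 inhibitor and the 4 PSMG assembly chaperones. The remaining 2 genes, PSMC3IP and PSME3IP1, match by symbol only and encode proteins that are not proteasome subunits. The cap subunits ADRM1 and SEM1 have other symbols and were not taken by the rule.

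The proteasome is a barrel-shaped protease that degrades proteins tagged with ubiquitin. Rings of alpha subunits form the gate of the core, and rings of beta subunits hold the proteolytic sites, carried by PSMB5 (chymotrypsin-like), PSMB6 (caspase-like) and PSMB7 (trypsin-like). The 19S cap binds, unfolds and threads the substrate. In blood cells, and after interferon gamma, the inducible subunits PSMB8, PSMB9 and PSMB10 take the places of PSMB5, PSMB6 and PSMB7 and form the immunoproteasome, which cuts peptides suited to presentation on MHC class I. Most other subunits are needed by every cell, and their genes are expressed widely.

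The libraries came from CUT&Tag, where antibody-bound Tn5 cuts and tags the DNA beside the modified histone. Kasumi-1 cells carry the fusion gene RUNX1::RUNX1T1, and MV4-11 cells have a rearranged KMT2A. Each line gave 1 control library (NC; control hairpin cells by the methods of the study, labelled untreated) and 1 library of cells with a short hairpin RNA against ANP32B, a nuclear histone-binding protein (sh-ANP32B). Which hairpin was used for these libraries is not given in the sources used here, and a peak list cannot show how far ANP32B was reduced. Replicates were merged before peaks were called, so each group is 1 list without replicates, and every difference below describes these libraries and has no spread or test behind it. An exact comparison of the lines over libraries, 2 against 2, could not go below p = 0.333. Depth is unknown, because the lists hold positions and lengths but no read numbers.

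The 4 lists held 22136 to 24523 peaks on chromosomes 1 to 22, X and Y, and covered 32.7 Mb and 33.7 Mb in the Kasumi-1 libraries (NC, then sh-ANP32B), but 27891707 and 23004402 bases in those of MV4-11. Genes that mark the lines did not separate them as labelled. HOXA9 and HOXA10, active in KMT2A-rearranged leukemia, had 4335 and 5001 bases under promoter peaks in the NC library labelled Kasumi-1, against 769 and 2648 in that labelled MV4-11. MEIS1, another such gene, had 3103 to 3337 bases in all libraries. POU4F1 and KIT, markers of RUNX1::RUNX1T1 leukemia, had 0 in every library. RUNX1T1 also had 0 around its own start, which need not be the start of the fusion gene. Of 4 myeloid genes, SPI1 had 3008 to 3127 bases in all libraries, CEBPA had peaks in 3 libraries, CD33 only in the Kasumi-1 libraries, and MPO in none. Line names below are therefore those of the labels, and differences between lines are differences between libraries with those labels. The part of sample identity in them was not tested.

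The promoter sequence of 6 genes is shown first, because their start sites differed in how the mark was laid out. PSMB8 and PSMB10 had peaks in both Kasumi-1 libraries, and PSMB9 had none around its canonical start on its own chromosome in any library. PSMB5 is the constitutive counterpart of PSMB8, and PSMD6 and PSMD3 hold motifs common in this gene family. The sequences run 5′ to 3′ up to the base before the canonical start, in the direction of transcription, read from the hg38 genome, and are cut short at 250 bases or where they reach a coding or UTR exon. They lie at chr14:23034901-23035111 (PSMB5, minus strand), chr6:32844048-32844135 (PSMB8, minus), chr6:32853942-32854191 (PSMB9, plus), chr16:67936851-67937100 (PSMB10, minus), chr3:64023495-64023744 (PSMD6, minus) and chr17:39980557-39980806 (PSMD3, plus). Capitals mark matches to the 8 searched motifs on either strand.
PSMB5: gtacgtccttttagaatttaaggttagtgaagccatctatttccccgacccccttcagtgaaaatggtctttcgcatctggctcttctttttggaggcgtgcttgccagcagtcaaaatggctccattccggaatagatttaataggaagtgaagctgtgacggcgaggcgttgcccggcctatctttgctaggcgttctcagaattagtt
PSMB8: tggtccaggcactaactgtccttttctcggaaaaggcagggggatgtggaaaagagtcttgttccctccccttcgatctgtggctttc
PSMB9: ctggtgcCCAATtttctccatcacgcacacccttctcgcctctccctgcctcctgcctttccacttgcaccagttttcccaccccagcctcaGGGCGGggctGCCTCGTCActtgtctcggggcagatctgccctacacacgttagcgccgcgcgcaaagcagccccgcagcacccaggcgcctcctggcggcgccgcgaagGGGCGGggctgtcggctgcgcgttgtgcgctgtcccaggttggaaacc
PSMB10: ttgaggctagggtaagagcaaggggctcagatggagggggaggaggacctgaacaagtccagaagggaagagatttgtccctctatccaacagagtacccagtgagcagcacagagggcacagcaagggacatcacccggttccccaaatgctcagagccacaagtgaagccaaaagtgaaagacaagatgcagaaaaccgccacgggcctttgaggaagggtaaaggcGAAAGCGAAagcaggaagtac
PSMD6: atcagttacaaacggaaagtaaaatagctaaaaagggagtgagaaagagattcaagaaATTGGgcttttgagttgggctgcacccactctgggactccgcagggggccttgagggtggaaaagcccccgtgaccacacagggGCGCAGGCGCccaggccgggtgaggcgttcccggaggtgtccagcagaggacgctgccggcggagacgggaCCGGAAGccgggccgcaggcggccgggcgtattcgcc
PSMD3: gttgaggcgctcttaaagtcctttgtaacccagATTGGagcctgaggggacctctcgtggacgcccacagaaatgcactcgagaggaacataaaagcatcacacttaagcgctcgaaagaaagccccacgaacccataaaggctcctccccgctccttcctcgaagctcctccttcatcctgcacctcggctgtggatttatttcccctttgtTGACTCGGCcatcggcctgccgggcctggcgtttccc

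In PSMB10, the core of the interferon-stimulated response element (GAAANNGAA) began 21 bases before the start. The antioxidant response element (ARE, TGACNNNGC), the site of the NFE2L1 and NFE2L2 factors that drive proteasome genes when proteasome activity drops, began 37 bases before the start of PSMD3 and matched PSMB9 on the opposite strand. In PSMD6, an ETS site (CCGGAAG) began 37 bases before the start. The printed stretches of PSMB5 and PSMB8 held none of the searched motifs. Over the 250 bases before all 50 starts, the ARE was in 12 promoters (24.0%), against 11.4% of all protein-coding promoters. The ETS site was in 16 (32.0%), against 11.9% of all promoters and 18.7% of those of genes with a window peak in all 4 libraries. The other motifs were nearer to the background. The CCAAT box (CCAAT) was in 42.0% against 34.3%, the GC box (GGGCGG) in 64.0% against 59.0%, the NRF1 site (GCGCNNGCG) in 22.0% against 20.9%, the E-box (CACGTG) in 8.0% against 7.86% and the TATA box (TATAAA) in 5 promoters, against 9.36% of all. The interferon core was in 8.0% against 6.15%, in PSMB4, PSMB10, PSME2 and PSMG4. These are matches of letters, not measured sites. A promoter can hold several, and matches can overlap.

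For every gene, the value was the number of bases under peaks in a window of 2500 bases to each side of the canonical start. A window peak was present in Kasumi-1 NC for 43 of the 50 proteasome genes (86.0%), beside 47.8% of all protein-coding genes. It was present in Kasumi-1 sh-ANP32B for 45, beside 45.4%. In MV4-11 it was present for 38 genes (76.0%) in NC, beside 35.8%, and again for 38 in sh-ANP32B, beside 28.7%. In all 4 libraries, 33 genes (66.0%) had a window peak, beside 26.0% of all genes. Between MV4-11 NC and MV4-11 sh-ANP32B the share of all genes with a window peak was lower, while the proteasome count was equal, with 3 genes without and 3 genes with a peak exchanged. The genes of the cytosolic ribosome, another complex that every cell needs, had window peaks in 97.6%, 97.6%, 92.8% and 83.1% of 83 genes in the same order of libraries, and those of the mitochondrial ribosome in 88.5%, 87.2%, 70.5% and, in MV4-11 sh-ANP32B, 39 genes of 78.

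**Figure D1:**
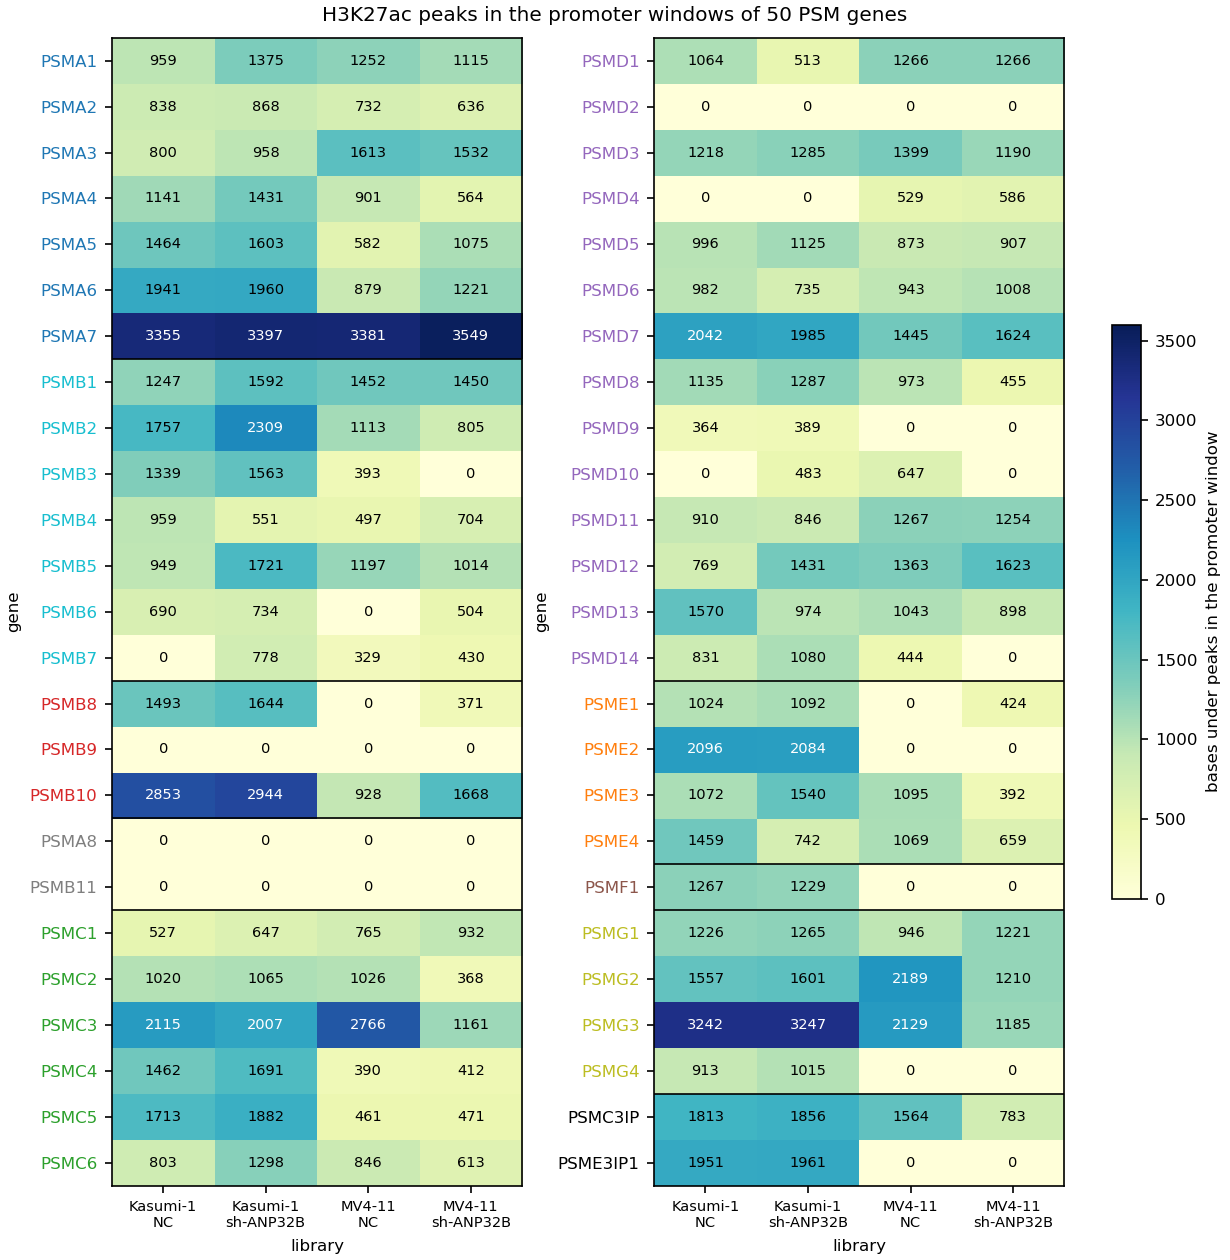
Bases under H3K27ac peaks in the promoter window (2500 bases to each side of the start) for each of the 50 genes, in rows, and each of the 4 libraries, in columns. Label colours and horizontal lines separate the classes. The darkest rows in Kasumi-1 are PSMA7 (3355 and 3397 bases), PSMG3 and PSMB10, and 4 rows, PSMA8, PSMB9, PSMB11 and PSMD2, are 0 throughout.

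Coverage per promoter was moderate. Among genes with a window peak, the median was 1218 bases in Kasumi-1 NC, 1298 in its knockdown list, 999.5 in MV4-11 NC and 919.5 after knockdown. The medians over all genes with a window peak were 1500, 1522, 1046 and 911 bases. Proteasome promoters were thus marked more often than the average gene but with fewer bases than the median marked gene in both Kasumi-1 libraries. The peaks lay close around the start. The start itself was under a peak in 93.0%, 91.1%, 78.9% and 65.8% of the marked proteasome genes, in the same order, against 86.7%, 77.8%, 66.4% and 57.5% of all marked genes. The highest point of the profile was 50 bases after the start in Kasumi-1 NC, where all 43 marked genes were covered, and 200 bases after it in MV4-11 sh-ANP32B, at 86.8%. Coverage leaned downstream. A mean of 12.7% of marked proteasome genes was covered upstream and 25.3% downstream in MV4-11 sh-ANP32B, and 24.2% and 29.0% in Kasumi-1 NC. All marked genes leaned downstream too, with 19.4% and 25.2% in MV4-11 sh-ANP32B and 29.6% and 37.0% in Kasumi-1 NC.

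**Figure D2:**
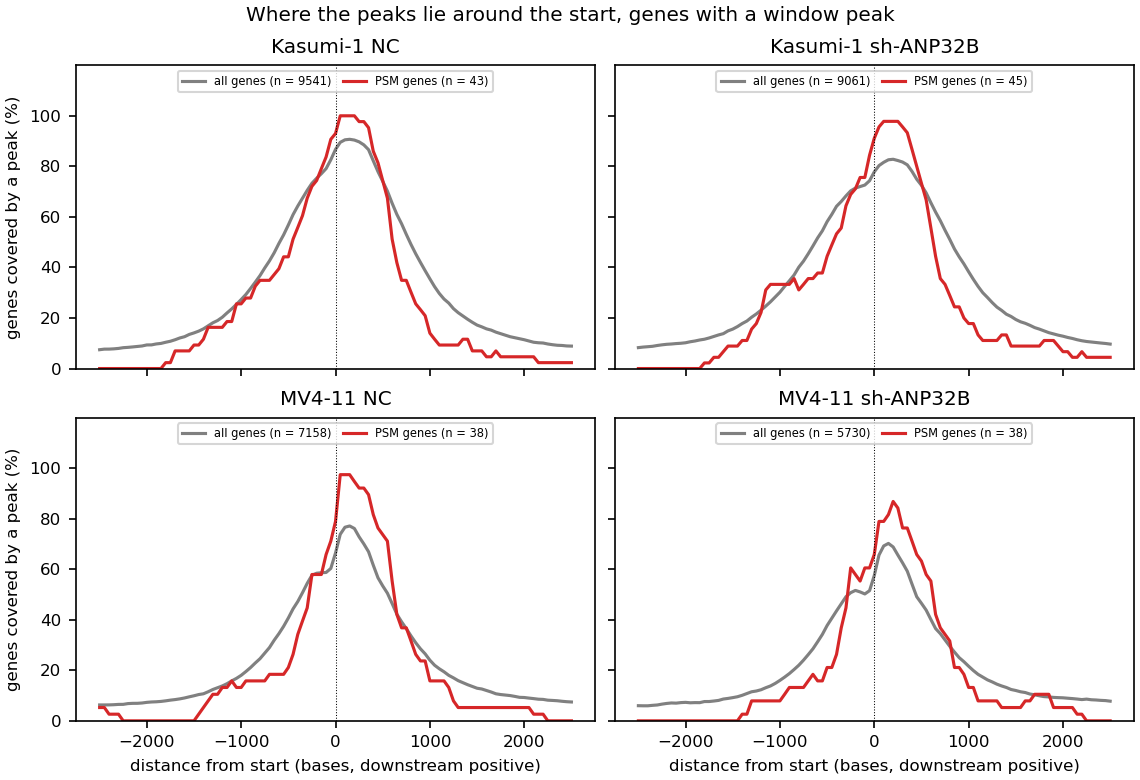
Share of genes with a window peak (vertical axis, %) whose peaks cover each position, against the distance from the start in bases (downstream positive), in the 4 libraries. Red is the proteasome (PSM) genes and grey all protein-coding genes. The red curve is the higher at the start (93.0% against 86.7% in Kasumi-1 NC) and in the Kasumi-1 libraries is the lower beyond 1000 bases downstream.

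The 7 alpha subunit genes, whose products form the outer rings of the core, had a window peak in every library. PSMA7 covered most, with 3355 bases in Kasumi-1 NC, 3397 in its knockdown list, 3381 in MV4-11 NC and 3549 after knockdown. The start of SS18L1 lies 375 bases upstream of that of PSMA7 and shares its window, so the peak cannot be assigned to one of them. In all, the windows of 14 of the 50 genes hold the start of another protein-coding gene, and the same limit applies to them. PSMA3 covered least of the class in Kasumi-1 NC, with 800 bases, 958 in sh-ANP32B and 1613 and 1532 in MV4-11. It was 1 of 2 proteasome genes with at least 1.5-fold more covered bases in MV4-11 in both the NC pair and the sh-ANP32B pair. PSMA5 covered 1464 and 1603 bases in Kasumi-1, 582 in MV4-11 NC and 1075 after knockdown.

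Of the 7 constitutive beta genes, 4 had a window peak in all libraries. PSMB2 covered most in Kasumi-1 NC, with 1757 bases, 2309 after knockdown, 1113 in MV4-11 NC and 805 after knockdown. PSMB5, the target of the drug bortezomib, covered 949, 1721, 1197 and 1014 bases in the same order. Its Kasumi-1 sh-ANP32B peak reached 1479 bases past the start, against 644 in NC. PSMB6 covered 690 and 734 bases in Kasumi-1, 0 in MV4-11 NC and 504 after knockdown. PSMB7 covered 0 bases in Kasumi-1 NC, 778 in its knockdown list, 329 in MV4-11 NC and 430 after knockdown. Each of the 3 catalytic genes thus had a different pattern, and only PSMB5 was marked in all libraries. PSMB3, a structural subunit, covered 1339 and 1563 bases in Kasumi-1, 393 in MV4-11 NC and 0 after knockdown.

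The immunoproteasome genes differed from each other. PSMB10 (ENSG00000205220, chromosome 16, start 67936850, minus strand) covered 2853 bases in Kasumi-1 NC, 2944 in its knockdown list, 928 in MV4-11 NC and 1668 after knockdown. Among marked genes this placed it at percentiles 86.8, 87.5, 43.3 and 79.3. PSMB8 (ENSG00000204264, chromosome 6, start 32844047, minus strand) covered 1493 and 1644 bases in Kasumi-1, 0 in MV4-11 NC and 371 after knockdown, where the peak ended 47 bases upstream of the start. PSMB9 (ENSG00000240065, chromosome 6, start 32854192, plus strand) covered 0 bases in all 4 libraries around this canonical start. The annotated gene begins at 32844136, near the start of PSMB8, and that position is outside this window. The start of TAP1, the peptide transporter gene that is read from the other strand, lies 488 bases upstream of that of PSMB9, and its window also held no peak. The nearest peak to the PSMB9 start was 9155 bases away in Kasumi-1 NC, 9024 in its knockdown list, 114062 in MV4-11 NC and 9728 after knockdown. In MV4-11 NC the nearest peak to PSMB8 was 124207 bases away, so that a long stretch of this MHC region had no peak on chromosome 6 itself.

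Of the 12 pairs of an immunoproteasome gene and a library, 7 had a window peak. PSMB8 and PSMB10 had at least 1.5-fold more covered bases in Kasumi-1 than in MV4-11 in both pairs, a call that 57.0% of all genes had. For PSMB10 the ratio was 3.07 in the NC pair and 1.76 in the sh-ANP32B pair. For PSMB8 it was 4.43 in the sh-ANP32B pair, with none to be given in the NC pair. With narrower windows (1000 bases to each side, or 2500 in all), or with the median of all genes subtracted, only 1 of these genes kept that call in both pairs. Counting every annotated start of a gene, 10 of the 12 pairs of gene and library had a window peak, and all 3 genes had the call. The added pairs came from the PSMB9 start at 32844136, which lies under the window peaks of PSMB8. The same peaks were thus counted for both genes and are not separate evidence for PSMB9. Of the other 47 proteasome genes, 41, 43, 37 and 36 had a window peak in the 4 libraries, and their medians among those marked were 1141, 1287, 1026 and 919.5 bases. Set beside its constitutive counterpart, PSMB10 covered more bases than PSMB7 in all 4 libraries. PSMB8 covered more than PSMB5 in Kasumi-1 NC and fewer in the other 3 libraries. On its own chromosome, around the canonical start, PSMB9 covered fewer than PSMB6 in the 3 libraries where PSMB6 had a peak.

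The reference genome holds near-identical second versions of some regions, called alternate sequences, and the authors' lists have peaks on them. Stretches that matched a promoter window over at least 4500 bases with at least 90% identity were found for 3 of the 50 genes. PSMB8 had 7 such copies, at least 96.95% identical. All 7 carried a peak in both Kasumi-1 libraries, 4 in MV4-11 NC and 2 after knockdown. The most bases on a copy were 1674, 2001, 550 and 696, so that in MV4-11 NC, where chromosome 6 itself had 0, a copy had 550. PSMB9 also had 7 copies, of which 2 carried a peak in each Kasumi-1 library, with up to 1233 bases in NC and 945 in sh-ANP32B, and none in MV4-11. The TAP1 window overlaps that of PSMB9 and showed the same peaks. PSMB3 had 1 copy, 96.06% identical, with 1237, 1283, 432 and 604 bases, so that the loss of PSMB3 in MV4-11 sh-ANP32B was seen on chromosome 17 and not on the copy. With the copies counted, 10 of the 12 pairs of immunoproteasome gene and library had a peak. In MV4-11 a peak was then lost for 2 proteasome genes in place of 3, and gained for 2 in place of 3. A read from such a region can match several copies equally well, and how reads were placed among them was not tested.

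**Figure D3:**
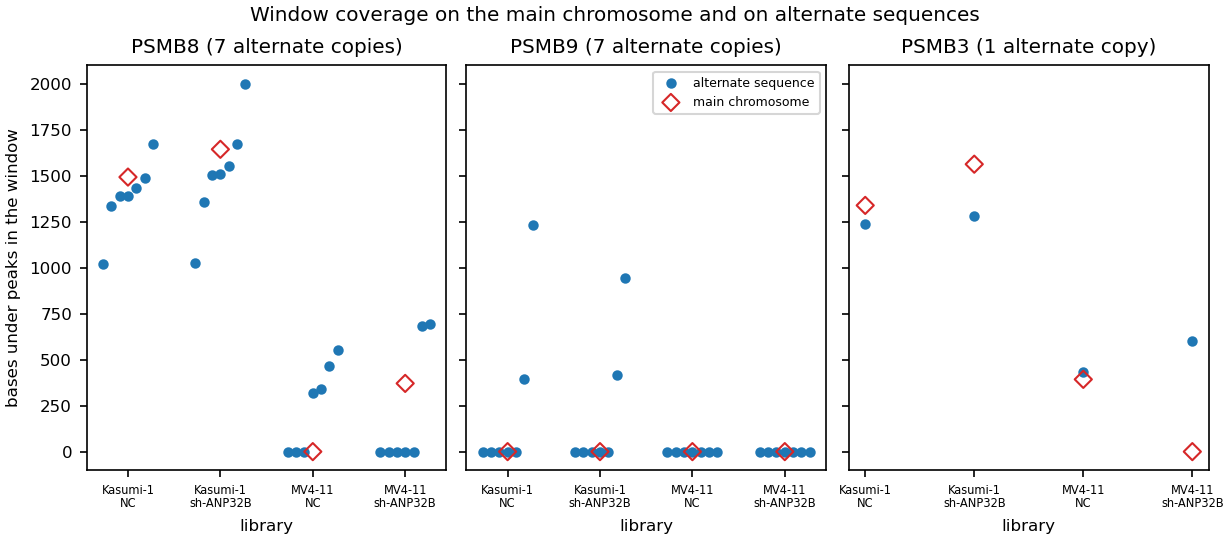
Bases under peaks in the promoter windows of PSMB8, PSMB9 and PSMB3 (vertical axis) in the 4 libraries, on the main chromosome (red diamonds) and on each alternate sequence of hg38 (blue points). In MV4-11 NC the diamond of PSMB8 is at 0 and 4 of 7 copies lie between 318 and 550, and PSMB9 has points above 0 only on copies in Kasumi-1.

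Neither tissue-restricted core gene had a window peak in any library. PSMA8, the alpha subunit of spermatocytes, had its nearest peak 42472 to 42759 bases away. PSMB11, the beta subunit of the thymus cortex, had its nearest peak 6760 to 7071 bases away, which was the promoter peak of its neighbour PSMB5.

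The 6 ATPase genes, whose products form the unfolding ring of the cap, had a window peak in every library. PSMC3 covered most in Kasumi-1 NC, with 2115 bases, 2007 after knockdown, 2766 in MV4-11 NC and 1161 after knockdown. PSMC1 covered least in Kasumi-1 NC, with 527 bases, 647 in sh-ANP32B and 765 and 932 in MV4-11. PSMC4 and PSMC5 differed most between the lines. PSMC4 covered 1462 and 1691 bases in Kasumi-1 and 390 and 412 in MV4-11. PSMC5 covered 1713 and 1882 bases in Kasumi-1 and 461 and 471 in MV4-11. For each of these genes the line labels separate the libraries by 3.72-fold to 4.10-fold, and the covered bases of NC and sh-ANP32B of 1 line lie close together. The positions need not be the same. In MV4-11 NC the PSMC4 peak ran from 36 to 425 bases relative to the start, and in sh-ANP32B from -660 to -249. These peaks share no base.

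Of the 14 PSMD genes of the cap, 9 had a window peak in all libraries. PSMD7 covered most in Kasumi-1 NC, with 2042 bases, 1985 in sh-ANP32B and 1445 and 1624 in MV4-11. PSMD9, an assembly chaperone of the base, covered 364 and 389 bases in Kasumi-1 and 0 in both MV4-11 libraries. PSMD2, which encodes a large scaffold subunit, had no window peak in any library, and its nearest peak was 14856 to 15515 bases away. PSMD4, a ubiquitin receptor, covered 0 bases in both Kasumi-1 libraries, 529 in MV4-11 NC and 586 after knockdown. It was the only proteasome gene marked in both MV4-11 libraries and in neither Kasumi-1 library. PSMD14, the deubiquitinase of the lid, covered 831 and 1080 bases in Kasumi-1, 444 in MV4-11 NC and 0 after knockdown. PSMD10 (gankyrin), an assembly chaperone, covered 0 bases in Kasumi-1 NC, 483 in its knockdown list, 647 in MV4-11 NC and 0 after knockdown. The start of ATG4A lies 236 bases upstream in the same window. Where PSMD10 had no window peak, the nearest peak was 373878 bases away in the control Kasumi-1 list and 375136 in the knockdown MV4-11 list.

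Among the activators, PSME1 and PSME2 encode the alpha and beta subunits of the interferon-inducible 11S ring and lie near each other on chromosome 14. PSME1 covered 1024 and 1092 bases in Kasumi-1, 0 in MV4-11 NC and 424 after knockdown. PSME2 covered 2096 and 2084 bases in Kasumi-1 and 0 in both MV4-11 libraries, and the start of RNF31 lies in its window. PSME1 thus had the same pattern of presence as PSMB6 and PSMB8. PSME4, the nuclear activator PA200, covered 1459 bases in Kasumi-1 NC, 742 in its knockdown list, 1069 in MV4-11 NC and 659 after knockdown, with the start of ACYP2 120 bases upstream of its own. PSME3, the nuclear PA28 gamma, covered 1072, 1540, 1095 and 392 bases. The inhibitor gene PSMF1 covered 1267 and 1229 bases in Kasumi-1 and 0 in both MV4-11 libraries.

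Of the 4 assembly chaperone genes, PSMG3 covered most in Kasumi-1, with 3242 and 3247 bases in Kasumi-1, 2129 in MV4-11 NC and 1185 after knockdown. PSMG2 covered 1557 and 1601 bases in Kasumi-1, 2189 in MV4-11 NC and 1210 after knockdown. PSMG1 covered 1226, 1265, 946 and 1221 bases. PSMG4 covered 913 and 1015 bases in Kasumi-1 and 0 in both MV4-11 libraries, and its Kasumi-1 peaks lay beside the start, 44 and 81 bases from it. Of the genes that match by symbol only, PSME3IP1 covered 1951 and 1961 bases in Kasumi-1 and 0 in MV4-11, and PSMC3IP covered 1813, 1856, 1564 and 783 bases.

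In Kasumi-1, knockdown of ANP32B was accompanied by small differences at proteasome promoters. No proteasome gene lost its window peak (0 of 43), beside 6.79% of all genes with a peak in NC. With peaks of at least 1000 bases only, 3 of 26 (11.5%) did, beside 12.4%. PSMB7 and PSMD10 gained one, 2 of 7 genes without a peak in NC, beside 1.61% of all such genes. Mitochondrial ribosomal protein genes gained one in 2 of 9 (22.2%) and lost one in 3 of 69 (4.35%). Cytosolic ribosomal protein genes gained 0 of 2 and lost 0 of 81, so these counts are not particular to the proteasome genes. With a difference of at least 1.5-fold as the call, 4 of 45 proteasome genes (8.89%) were lower in sh-ANP32B, beside 14.6% of all genes, and 5 (11.1%) were higher, beside 4.87%. The share higher was near the background with windows of 1000 bases to each side (4.44%, beside 3.77%). The lower genes were PSMB4, PSMD1, PSMD13 and PSME4, and the higher ones PSMB5, PSMB7, PSMC6, PSMD10 and PSMD12. The 3 largest decreases in covered bases were at PSME4 (a fold of 0.509), PSMD13 (0.620, from 1570 to 974 bases) and PSMD1 (0.482, from 1064 to 513 bases). PSMD13 covered 1043 and 898 bases in MV4-11 and PSMD1 1266 in both of its libraries. The 3 largest increases were at PSMB7, PSMB5 (1.81) and PSMD12 (1.86, from 769 to 1431 bases, with 1363 and 1623 in MV4-11). The start of SIRT3 lies in the window of PSMD13.

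Counted without the 1.5-fold limit, 33 of the 43 genes marked in both Kasumi-1 libraries (76.7%) had more covered bases in sh-ANP32B and 10 had fewer, beside 51.5% with more over all genes. The median log2 ratio of sh-ANP32B to NC was 0.089, beside 0.0041 over all genes. By class, all 7 alpha genes, 5 of 6 constitutive beta genes, 5 of 6 ATPase genes and all 4 PSMG chaperone genes had more, and the PSMD genes had 6 with more and 5 with fewer. Cytosolic and mitochondrial ribosomal protein genes had more covered bases in 61.7% and 68.2%. At the 1.5-fold limit 0.0% and 11.3% of them were lower, and 6.17% and 11.3% higher. Of the 33 genes with more in Kasumi-1, 3 (PSMB5, PSMC6 and PSMD12) reached 1.5-fold.

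In MV4-11, sh-ANP32B had fewer covered bases than NC over the whole genome, and with all peaks counted the share of losses among proteasome genes was below that over all genes. PSMB3, PSMD10 and PSMD14 lost their window peak, 3 of 38 genes (7.89%), beside 24.4% of all genes. With peaks of at least 1000 bases only, this turned round, at 8 of 18 (44.4%) beside 39.4%. PSMB6, PSMB8 and PSME1 gained one, 3 of 12, beside 2.46%, although PSMB8 already had peaks on alternate sequences in NC. At the 1.5-fold limit 12 of 41 genes (29.3%) were lower, beside 45.0%, and 5 (12.2%) were higher, beside 7.28%. The lower genes were PSMA4, PSMB3, PSMC2, PSMC3, PSMC3IP, PSMD8, PSMD10, PSMD14, PSME3, PSME4, PSMG2 and PSMG3. The higher genes were PSMA5, PSMB6, PSMB8, PSMB10 and PSME1, which include both immunoproteasome genes that had a peak on the main chromosome. For PSMB8 the call rests on 0 against 371 bases on chromosome 6 itself. Of its 7 alternate copies, 4 had a peak in NC and 2 in sh-ANP32B. The 3 largest decreases in covered bases were at PSMC3 (a fold of 0.420), PSMG2 (0.553) and PSMG3 (0.557). By fold, PSME3 (0.358) and PSMC2 (0.359) fell further, and the 3 lost genes fell to 0. The 3 largest increases in covered bases were at PSMB10 (1.80), PSMB6 and PSMA5 (1.85).

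The median log2 ratio of sh-ANP32B to NC in MV4-11 was -0.015 over the 35 proteasome genes marked in both libraries, with 15 of them (42.9%) having more bases, 19 fewer and 1 equal. Over all genes the median was -0.27 and 23.9% had more. In the ribosomal families 20.3% (cytosolic) and 17.1% (mitochondrial) had more, and 10.4% and 36.4% lost their peak. In the same order, 0 of 6 and 4 of 23 (17.4%) gained one. At the 1.5-fold limit 32.5% and 47.5% were lower, and 3.9% and 6.78% higher. With the median of all genes subtracted, 9 proteasome genes were higher and 8 lower in MV4-11 sh-ANP32B, in place of 5 and 12. The direction for single genes near a ratio of 1 therefore depends on the scaling. By class the medians were -0.074 (alpha, 7 genes), -0.002 (constitutive beta, 5), -0.22 (ATPase, 6), 0.028 (PSMD, 10), -1.09 (activators, 2: PSME3 and PSME4) and -0.85 (PSMG chaperones, 3). PSMB10, the 1 immunoproteasome gene marked in both, had 0.85, and PSMC3IP, a match by symbol only, had -0.998.

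Losses were set beside the width of the NC peak. Of the proteasome genes with 500 to 999 covered bases in MV4-11 NC, 1 of 13 (7.69%) lost the peak, beside 35.3% of all genes in that range. With 1000 to 1999 bases it was 0 of 15, beside 9.63%. With under 500 bases it was 2 of 6 (33.3%), beside 60.1%. With 2000 bases or more it was 0 of 4, beside 0.803%, but 3 of these 4 were lower at the 1.5-fold limit, beside 24.6% of all genes in that range. They were also set beside base composition. The median GC content around the start was 59.3% over proteasome genes and 61.3% over all genes. In the range of 55% to 60% GC, 3 of 19 proteasome genes (15.8%) lost the peak, beside 25.7%. Under 55% it was 0 of 6, beside 21.9%. From 60% to 65% it was 0 of 8, and from 65% up 0 of 5, each beside 24.5%. The part of either in the result was not tested.

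**Figure D4:**
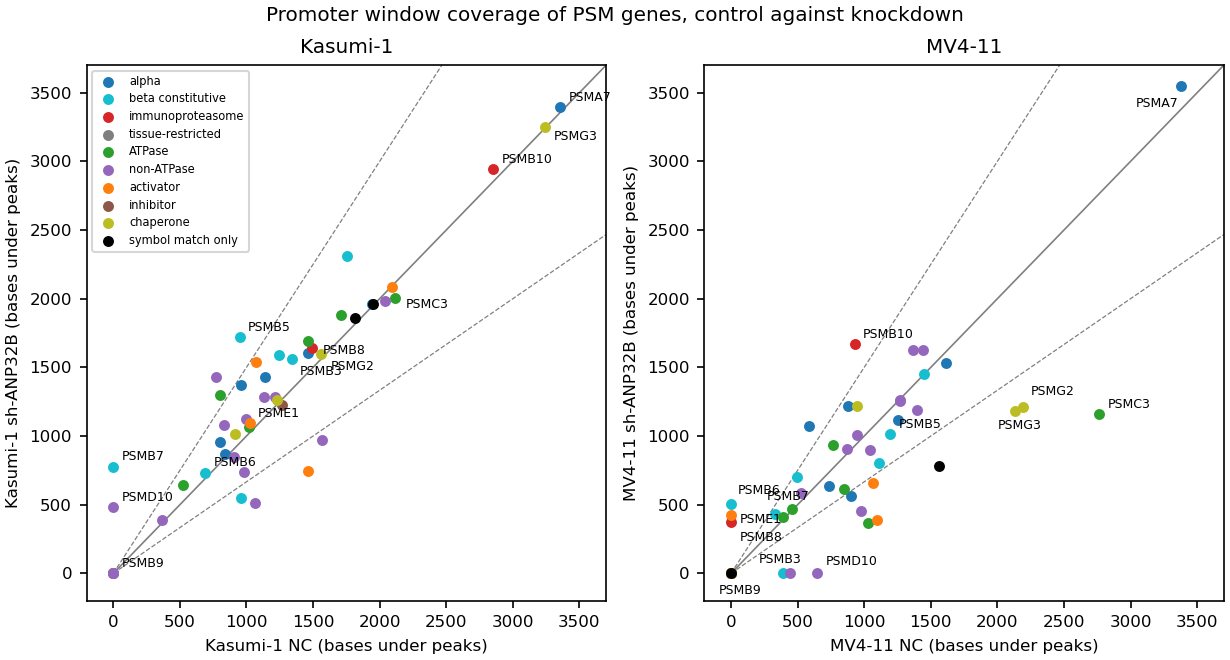
Bases under peaks in the promoter window in sh-ANP32B (vertical axis) against NC (horizontal axis) for the 50 genes in Kasumi-1 (left) and MV4-11 (right), coloured by class. The solid line marks equal values and the dashed lines a 1.5-fold difference. In Kasumi-1 most points lie slightly above the solid line (33 of 43), and in MV4-11 PSMC3, PSMG2 and PSMG3 lie far below it and PSMB10 above it.

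Of the 33 genes marked in all 4 libraries, 10 had more covered bases in sh-ANP32B in both lines and 4 had fewer in both. Another 15 had more in Kasumi-1 and fewer in MV4-11, 3 had the reverse, and 1 had equal values in MV4-11. PSME4 was the only gene called lower in both lines, and none was called higher in both. The same joint counts were not made over all genes, so they describe these genes only. Line by line, 51.5% of all genes marked in both Kasumi-1 libraries had more bases in sh-ANP32B. In MV4-11, 75.6% of all such genes had fewer. Whether the lines differ in this respect was not tested.

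Between the lines, most genes had more covered bases in the Kasumi-1 libraries. In the NC pair 19 of 46 proteasome genes (41.3%) were at least 1.5-fold higher in Kasumi-1, beside 61.9% of all genes, and 5 (10.9%) were higher in MV4-11, beside 5.86%. Those 5 were PSMA3, PSMB7, PSMD4, PSMD10 and PSMD12. In both pairs 15 (32.6%) were higher in Kasumi-1, beside 57.0%, and 2 (4.35%), PSMA3 and PSMD4, in MV4-11, beside 2.62%. The 15 were PSMA6, PSMB2, PSMB3, PSMB8, PSMB10, PSMC4, PSMC5, PSMD9, PSMD14, PSME1, PSME2, PSME3IP1, PSMF1, PSMG3 and PSMG4. They hold 2 of the 3 immunoproteasome genes and both 11S activator genes, beside 57.0% of all genes with that call. The median log2 ratio of Kasumi-1 to MV4-11 was 0.20 in the NC pair and 0.54 in the sh-ANP32B pair, beside 0.58 and 0.83 over all genes. With those medians subtracted, 13 genes were higher in Kasumi-1 and 18 in MV4-11 in the NC pair, and 9 and 9 in both pairs, so which line counts as higher depends on the scaling for many of the genes.

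**Figure D5:**
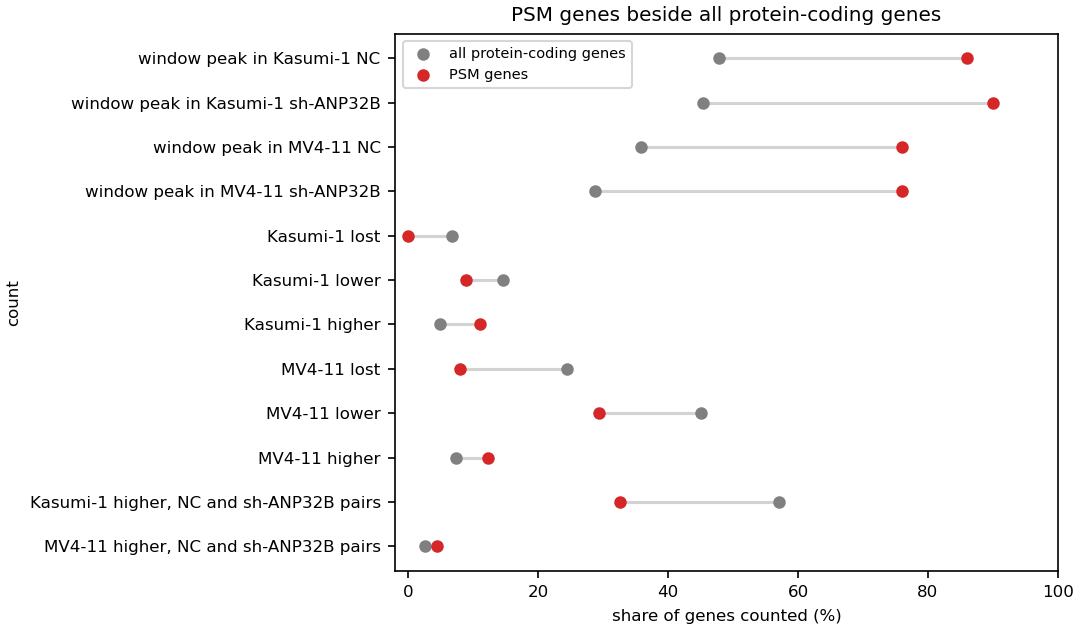
Share of genes (horizontal axis, %) with a window peak in each library and with each call between libraries, for proteasome (PSM) genes in red and all protein-coding genes in grey. The red points are to the right of the grey ones for the presence of a peak (86.0% against 47.8% in Kasumi-1 NC) and to the left for losses in MV4-11 (7.89% against 24.4%).

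Genes that assemble, regulate or work with the proteasome, 19 in all, were set beside the family. The cap subunit genes ADRM1 and SEM1 had a window peak in every library, ADRM1 with 3187, 2858, 3068 and 1457 bases and SEM1 with 439, 504, 468 and 594. POMP, the core maturation factor, covered 1038, 1102, 1186 and 544 bases. NFE2L1, which encodes the factor that restores proteasome gene transcription after inhibition, covered 2348 and 3171 bases in Kasumi-1, 1353 in MV4-11 NC and 0 after knockdown. Its relative NFE2L2 covered 2442, 2487, 2952 and 2300 bases, and DDI2, the protease that activates NFE2L1, 758 and 581 in Kasumi-1 and 0 in MV4-11. Of the interferon and antigen presentation genes, IRF1 covered 2433 and 2861 bases in Kasumi-1, 610 in MV4-11 NC and 0 after knockdown, and NLRC5 881, 1091, 338 and 0. Of the 19 genes, 3 in MV4-11 (IRF1, NFE2L1 and NLRC5) lost their window peak there (3 of the 15 marked, beside 24.4% of all genes), none gained one, 7 were lower at the 1.5-fold limit (46.7%, beside 45.0%) and 2 higher (13.3%, beside 7.28%). The shares lost and lower were thus near those over all genes. In Kasumi-1 none lost a peak and TAP2 gained one, although 2 of its 7 alternate copies already had a peak in NC. There, 1 of 18 was lower (5.56%, beside 14.6%) and 1 was higher (5.56%, beside 4.87%).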

How the data were processed

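H3K27ac was profiled by CUT&Tag in Kasumi-1 and MV4-11 cells, as NC and sh-ANP32B. The authors aligned reads to hg38 with Bowtie2, removed duplicates with Picard, merged replicates with samtools and called peaks with MACS2 at a q-value of 0.01; the submitters' processing notes name Bowtie2 2.4.4 and MACS3 3.0. Each of the 4 deposited lists holds the position of each peak and its length (in bases), with no height, score or read count. The 2 IgG samples are not analysed here, and the use of IgG in peak calling is not given in the sources used here.

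Peaks were joined to GENCODE 44 promoter windows with Python 3.11.15 and numpy 2.4.6, and the steps were tested on simulated peaks. Groups came from the labels. A gene was lost, gained, lower or higher (at least 1.5-fold, with a window at 0 in 1 library counted) between lists. Copies of windows on alternate sequences were found with minimap2 2.31. Promoter sequence was read from hg38. No test was run, since each group is 1 list. Because the lists differ in their smallest peak length (275 to 357 bases), narrow peaks were not equally recordable in each.

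Members, gene lists and motifs were chosen with earlier results of these data known. Values in every library are given for PSMB5 to PSMB10, PSME1 and PSME2, genes without a peak in at least 1 library, the genes with most and fewest bases of a class in Kasumi-1 NC, and the 3 largest decreases and increases per line. PSMC2, PSMC4, PSMC5, PSME3 and PSMG1 were added after their values were seen. The lymphoid marker check and the values of 1 related gene, which is still counted among the 19, are not reported here.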

Additional observations from a re-analysis of the deposited data

Results flagged for a closer look

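PSMD10 differed in opposite directions in the lines: 483 bases more in sh-ANP32B than in NC in Kasumi-1 and a difference of -647 bases in MV4-11, a peak gained in one line and lost in the other. The median log2 ratio of sh-ANP32B to NC over the proteasome genes was 0.0892 in Kasumi-1 and -0.0149 in MV4-11. Neither difference between the lines was tested, since each group is 1 list.

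Peaks lay on alternate sequences of hg38 where the main chromosome had none. The most bases on a copy were 604 for PSMB3 in MV4-11 sh-ANP32B, 550 for PSMB8 in MV4-11 NC, and 1233 and 945 for PSMB9 in Kasumi-1 NC and sh-ANP32B. Over all alternate sequences of chromosome 6 the Kasumi-1 lists held 328 (NC) and 358 (sh-ANP32B) peaks, and the MV4-11 lists 238 and 180.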

How the results depend on the processing

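Each result was recomputed under up to 10 alternatives, 172 values in all, of which 150 stayed close to the reported value, 21 moved and 1 changed sign. A count was called close when it changed by no more than 1.5-fold, so immunoproteasome pairs going from 7 to 10 were called close. Some alternatives could hardly move a count, since joining near peaks cannot remove a window peak. The 150 is therefore not a measure of robustness. Keeping only peaks of at least 1000 bases gave 26, 27, 18 and 14 genes with a window peak (Kasumi-1 NC and sh-ANP32B, then MV4-11), 3 lost (11.5% of those marked, beside 12.4% of all genes) and 4 gained in Kasumi-1, 8 lost in MV4-11 (44.4%, beside 39.4%), and a MV4-11 median log2 ratio of -0.1208. That median was -0.1672 with windows of 2500 bases in all, -0.1677 by the length of the widest peak, -0.1208 with a common smallest length and joining gap (an alternative chosen after seeing the data) and 0.2571 with the median of all genes subtracted, so its sign is not fixed. Counting every annotated start gave 1 gene gained in Kasumi-1. Genes higher in Kasumi-1 sh-ANP32B numbered 2 with windows of 1000 bases to each side (4.44%, beside 3.77% of all genes) and 3 by the widest peak (6.67%, beside 5.64%), near the background. With the median of all genes subtracted, 9 genes were higher in MV4-11 sh-ANP32B, 18 were higher in MV4-11 in the NC pair, and 9 were higher in Kasumi-1 and 9 in MV4-11 in both pairs. Of the immunoproteasome genes, 1 was higher in Kasumi-1 in both pairs with that subtraction and with either narrower window, and 3 with every annotated start counted. With every start counted, PSMB9 had this call through peaks that were also counted for PSMB8. The cause of these moves was not tested. No paired analysis was possible because each group is 1 list and no test was run. Covered bases depend on depth and on the caller's settings for each list, both unknown, so a window at 0 means that no peak was called, not that the mark was absent.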

Other observations

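Enzymes that bind the proteasome were not described above. UCHL5, a deubiquitinase of the cap, covered 2313 and 2311 bases in Kasumi-1, 1377 in MV4-11 NC and 291 after knockdown, and shares its window with the start of RO60. UBE3C, a ubiquitin ligase, covered 2291, 1833, 1457 and 537 bases. USP14, the other cap deubiquitinase, covered 1106, 899, 579 and 818 bases. TAPBP, the MHC class I loading factor tapasin, covered 2418 and 2195 bases in Kasumi-1, 301 in MV4-11 NC and 788 after knockdown. AKIRIN2, which brings proteasomes into the nucleus, covered 1688, 1870, 1020 and 1602 bases.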
